A study of Mus musculus with 2 samples.

Results

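The 10 genes of lipid absorption and chylomicron assembly followed here through single cells of mouse duodenal crypts are Apoa1, Apoa4, Apob, Apoc3, Mttp, Fabp1, Fabp2, Dgat1, Rbp2 and Cd36. They were chosen by name and matched by symbol to the gene list of the matrix, where they are 10 of 31205 gene symbols. The 2 samples came from wild-type mice labelled NT and ES, letters that the labels do not spell out. Crypts of 5 animals were pooled for each, after release with 5 mM EDTA for 30 min on ice, a 70 µm mesh to hold back villi, and dispersal to single cells. Neither age nor sex is given in the labels used here, and both samples shared the genotype and the tissue.

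Every barcode ends in 1 or 2, which was taken to mark the 2 pooled libraries. Nothing in the files ties these numbers to NT or ES, so values are given for library 1 and library 2 and no direction between the treatments is drawn. Each library stands alone, without replicates, so no test was possible. All intervals are 95% intervals that cover counting error only.

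The small intestine takes up fatty acids and monoacylglycerol from digested fat, rebuilds them into triglyceride in the endoplasmic reticulum, and packs the triglyceride with apolipoproteins into chylomicrons, particles that leave for the lymph. This is work of the absorptive enterocyte, a cell that matures as it moves from the crypt onto the villus. Crypts hold the stem cells, the dividing progenitors and the youngest enterocytes of this lineage, beside secretory cells. Apob is the structural protein of the chylomicron and Mttp loads lipid onto it. Apoa1, Apoa4 and Apoc3 are smaller apolipoproteins on the particle, Dgat1 makes the last bond of triglyceride, Fabp1 and Fabp2 carry fatty acids in the cytosol, Rbp2 carries retinol, and Cd36 is a fatty acid receptor at the membrane.

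On the GENCODE M21 annotation of the build mm10, all members are protein coding. Apoa1 (ENSMUSG00000032083, chr9:46228580-46230466, plus strand), Apoc3 (ENSMUSG00000032081, chr9:46232933-46235636, minus strand) and Apoa4 (ENSMUSG00000032080, chr9:46240696-46243459, plus strand) lie side by side within 14880 bases. The gaps between them are 2466 and 5059 bases, and no other gene of the matrix starts inside the cluster apart from the antisense model Gm10680 over Apoa4, which had 0 UMIs. The other members stand alone. These are Apob (ENSMUSG00000020609, chr12:7977648-8016835, plus), Mttp (ENSMUSG00000028158, chr3:138089854-138144968, minus), Fabp1 (ENSMUSG00000054422, chr6:71199827-71205023, plus) and Fabp2 (ENSMUSG00000023057, chr3:122895072-122899506, plus). Dgat1 (ENSMUSG00000022555) lies at chr15:76502015-76511953 on the minus strand. Rbp2 (ENSMUSG00000032454) lies at chr9:98486115-98509781 on the plus strand, and Cd36 (ENSMUSG00000002944) at chr5:17781690-17888801 on the minus strand. Mttp is overlapped on the other strand by Trmt10a and Gm43691, which had 1108 UMIs together in the kept cells, and Fabp2 by 4933405D12Rik with 25 UMIs. No source used here says whether the counting used strand, so reads of these overlaps may be shared.

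The stretch before the start of 2 members is shown because the members rose together along the absorptive lineage and because their letters differ in the kind of short motif they hold. Both are from RefSeq on GRCm38.p6, on the plus strand, 5′ to 3′, at chr9:98490377-98490536 for Rbp2 and chr12:7977488-7977647 for Apob. The Rbp2 stretch ends at the RefSeq start and lies within the longer GENCODE gene model, outside its exons. The Apob stretch ends 30 bases before the RefSeq start, where the GENCODE gene begins. Capitals mark matches to CAAAGTCC, to CAAAGNTCA and to the TATA box letters TATAAA, on either strand.
Rbp2: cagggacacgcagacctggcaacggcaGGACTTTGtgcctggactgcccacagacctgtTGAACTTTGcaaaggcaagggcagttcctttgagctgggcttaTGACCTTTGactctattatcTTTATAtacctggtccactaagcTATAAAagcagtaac
Apob: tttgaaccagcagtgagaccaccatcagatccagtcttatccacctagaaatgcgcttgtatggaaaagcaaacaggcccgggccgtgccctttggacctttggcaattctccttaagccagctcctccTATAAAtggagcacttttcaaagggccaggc
The RefSeq table gave promoters for 8 of the 10 members, and Apoc3 and Dgat1 are named only. Motifs were sought on both strands in the 250 bases before each start. CAAAGTCC, an HNF4 type motif, was found in 1 of 8, Rbp2, against 1.196% of 32851 promoters of the same length. AAAGTCCA, which overlaps it, was found in 0 of 8 against 1.01%. TATAAA was found in 3 of 8 (Apob, Fabp1 and Rbp2) against 12.4%, and the CDX type motif TTTATTA in 0 of 8 against 4.52%. CAAAGNTCA, chosen after the letters had been seen, was found in Apoa4 and Rbp2 against 1.32%. These are matches of letters and not binding sites.

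The libraries held 6310 and 6446 barcodes with 54316199 and 54877667 UMIs (unique molecular identifiers, tags that count RNA molecules). Of the 12756 barcodes, 7784 had at least 500 genes and at most 25% mitochondrial UMIs and were kept, 4057 in library 1 and 3727 in library 2, with medians of 10854 and 11800 UMIs. Across both libraries 40 barcode sequences occurred in both, 13 of them among kept cells. The 10 members took 0.313% and 0.393% of the kept UMIs.

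Absorptive stages were set by marker UMIs and not by the members. The markers were 19 brush border genes, hydrolases and transporters such as Sis and Slc5a1, and cells outside every other class were split at 15, 40 and 100 brush border UMIs per 10000. Stage 1, the lowest, held 1640 and 1005 cells, stage 2 528 and 623, stage 3 505 and 553, and stage 4 263 and 316. The stages are ranges of a score and not cell types, and 317 and 413 cells lay within 20% of the lowest limit. Stage 1 carried the crypt base, since the summed stem markers (Lgr5, Ascl2, Smoc2, Axin2 and Gkn3) stood at 536 and 533 counts per 1000000 UMIs (CPM) there against 32.6 and 34.2 CPM in stage 4. Cycling markers went from 1996 and 2153 CPM to 102 and 116 CPM. Of the villus tip genes listed, Ada, Nt5e and Slc28a2 were at or near 0 even in stage 4 (Ada highest, with 2.67 and 7.56 CPM). Klf4, listed with them, was not, and it made up most of their sum in the stage 4 split given below. Stage 4 is therefore named only the latest stage sampled, and its distance from the villus tip was not measured. The other classes, named by their own markers, were goblet-like (465 and 522 cells), Paneth-like (176 and 128), enteroendocrine-like (82 and 95), tuft-like (35 and 68) and lymphocyte-like (277 and 238) cells. Within the stages, the goblet list ran from 748 to 1194 CPM in library 1 and from 1492 to 1608 CPM in library 2, and the Paneth list from 2366 to 2618 CPM and from 3425 to 3702 CPM. Both lists were higher in library 2 in every stage, and their part in the ratios between the libraries was not tested.

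All 10 members were highest in stage 4 in both libraries, and all 10 were at least 2-fold above stage 1 in both. Of the 9552 genes with at least 100 UMIs over both stages in each library, 10.3% were so, and 28.4% were at least 2-fold lower. The median change of the members was 4.68 and 4.35 on the log2 scale, against -0.46 and -0.45 over all measured genes. For 9 members the ratio was 10-fold or more in both libraries, which 1.70% of all genes reached. Together the members made up 0.10% and 0.11% of UMIs in stage 1, 0.26% and 0.23% in stage 2, 0.52% and 0.50% in stage 3, and 1.90% and 1.96% in stage 4.

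**Figure D1:**
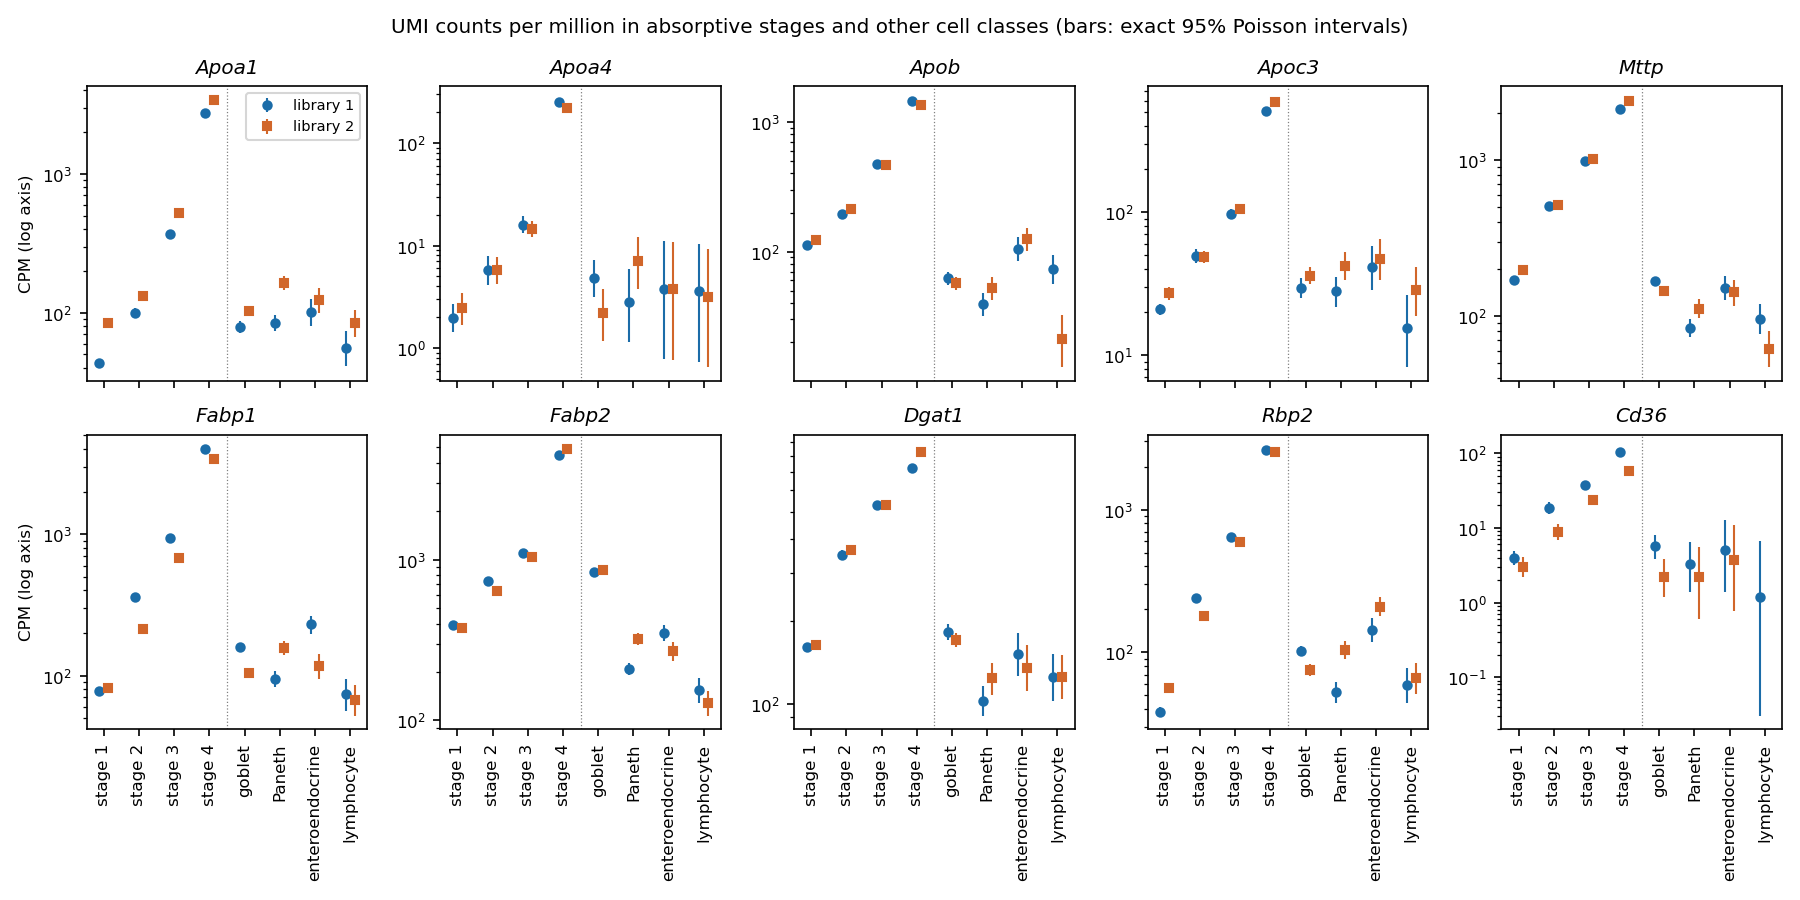
Level of each member in CPM (log axis) in absorptive stages 1 to 4 and in the other classes, one series for each library, with exact 95% Poisson intervals. All 10 members stand highest in stage 4, where Fabp2 reaches 4473 and 4861 CPM. The lymphocyte-like cells give the level taken as background.

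Among the particle's own proteins, Apob had the highest stage 1 level and the flattest rise. It stood at 113, 193, 470 and 1451 CPM in stages 1 to 4 of library 1 and at 124, 211, 464 and 1354 CPM in library 2. Each stage was above the one before in both libraries, and stage 4 was 12.9-fold (12.2 to 13.5) and 10.95-fold (10.4 to 11.6) above stage 1. Mttp, its lipid-loading partner, ran at 170, 508, 991 and 2110 CPM in library 1 and at 198, 513, 1015 and 2393 CPM in library 2. Its stage 4 ratio, 12.4-fold and 12.1-fold, was close to that of Apob, but more of the rise came early. From stage 1 to stage 2 Mttp rose 2.99-fold (2.85 to 3.14) and 2.60-fold (2.47 to 2.73), whereas Apob was 1.71-fold higher in each library.

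The 3 clustered apolipoproteins rose late. Apoa4 stood at 1.97, 5.79, 16.0 and 250 CPM in library 1 and at 2.44, 5.79, 14.6 and 223 CPM in library 2. Its step from stage 3 to stage 4 was the steepest of any member, 15.6-fold (12.8 to 19.2) and 15.3-fold (12.7 to 18.4). Apoa1 stood at 43.3, 99.6, 369 and 2774 CPM in library 1 and at 83.7, 131, 526 and 3395 CPM in library 2, and its last step was 7.51-fold and 6.46-fold. Apoc3, an inhibitor of lipoprotein lipase that is read from the opposite strand between them, stood at 20.9, 49.2, 97.0 and 511 CPM and at 27.1, 48.4, 105.4 and 593 CPM, with a last step of 5.26-fold and 5.63-fold. The neighbours thus shared a late rise but not the size of its last step. Over the whole range Apoa4 rose 127-fold (93.1 to 177) and 91.2-fold (64.5 to 133), Apoa1 64.1-fold and 40.6-fold, and Apoc3 24.5-fold and 21.9-fold. The stage 1 levels of all 3 were not above the background given below, so these whole-range ratios depend on it.

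Of the carriers in the cytosol, Fabp1 and Rbp2 behaved alike and Fabp2 differed. Fabp1 stood at 77.7, 357, 940 and 3990 CPM in library 1 and at 81.0, 212, 674 and 3429 CPM in library 2. Rbp2 stood at 38.5, 241, 644 and 2632 CPM and at 56.0, 180, 594 and 2512 CPM. Both left the lowest stage early, with first steps of 4.59-fold and 2.62-fold for Fabp1 and of 6.26-fold and 3.22-fold for Rbp2, and both rose by more than 40-fold in all. Fabp2 stood at 391, 737, 1096 and 4473 CPM in library 1 and at 375, 634, 1033 and 4861 CPM in library 2. Its first 2 steps were among the smallest, 1.88-fold and 1.69-fold and then 1.49-fold and 1.63-fold, and the last was 4.08-fold and 4.70-fold.

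Dgat1, the acyltransferase, had the smallest ratio of stage 4 to stage 1. It stood at 161, 349, 530 and 721 CPM in library 1 and at 164, 362, 529 and 826 CPM in library 2, so stage 4 was 4.48-fold (4.25 to 4.72) and 5.03-fold (4.77 to 5.30) above stage 1. With the lymphocyte-like level of 126 CPM in each library subtracted, these ratios were 16.9 and 18.3. In library 2 that was above the 17.2 of Mttp and the 12.99 of Apob on the same scale. The place of Dgat1 in the order of ratios was thus not the same on both scales. Whether the 126 CPM is stray RNA or Dgat1 of the lymphocyte-like cells themselves was not tested. Most of the rise came before stage 4, where the last step was 1.36-fold and 1.56-fold. As a share of member UMIs Dgat1 went from 15.8% and 14.7% in stage 1 to 3.79% and 4.203% in stage 4, while Apoa1 went from 4.24% and 7.52% to 14.6% and 17.3%. Cd36, the receptor, stood at 3.94, 18.5, 38.0 and 105.5 CPM in library 1 and at 3.03, 8.81, 23.5 and 57.6 CPM in library 2, a rise of 26.8-fold (21.1 to 34.4) and 19.0-fold (13.6 to 27.1).

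Step by step, 5 of the 9 members measured (Mttp, Fabp1, Dgat1, Rbp2 and Cd36) were at least 2-fold higher in stage 2 than in stage 1 in both libraries, against 2.53% of all genes. From stage 2 to stage 3 it was 6 of 10 (Apoa1, Apoa4, Apob, Fabp1, Rbp2 and Cd36) against 1.33%, and from stage 3 to stage 4 9 of 10, without Dgat1, against 2.88%. When the staged cells of each library were instead ordered by brush border share and cut into 8 bins of equal size, every member peaked in bin 8 in both libraries. Dgat1 had reached 56.2% and 59.6% of its last bin by bin 6. In bin 7 Apoa4 was still at 8.42% and 8.68% of its last bin, Apoa1 at 15.8% and 19.5%, Rbp2 at 28.3% and 27.6%, Apob at 34.9% and 39.9%, and Mttp at 50.0% and 47.9%. Cd36 was at 41.0% and 47.1%, Fabp2 at 29.2% and 22.7%, Fabp1 at 25.9% and 22.5%, and Apoc3 at 24.3% and 19.9%. The order in which the members filled up therefore ran from Dgat1 and Mttp to the apolipoproteins of the cluster, with Apoa4 last in each library. Apoc3 was close to Fabp1 and Fabp2 in this order.

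**Figure D2:**
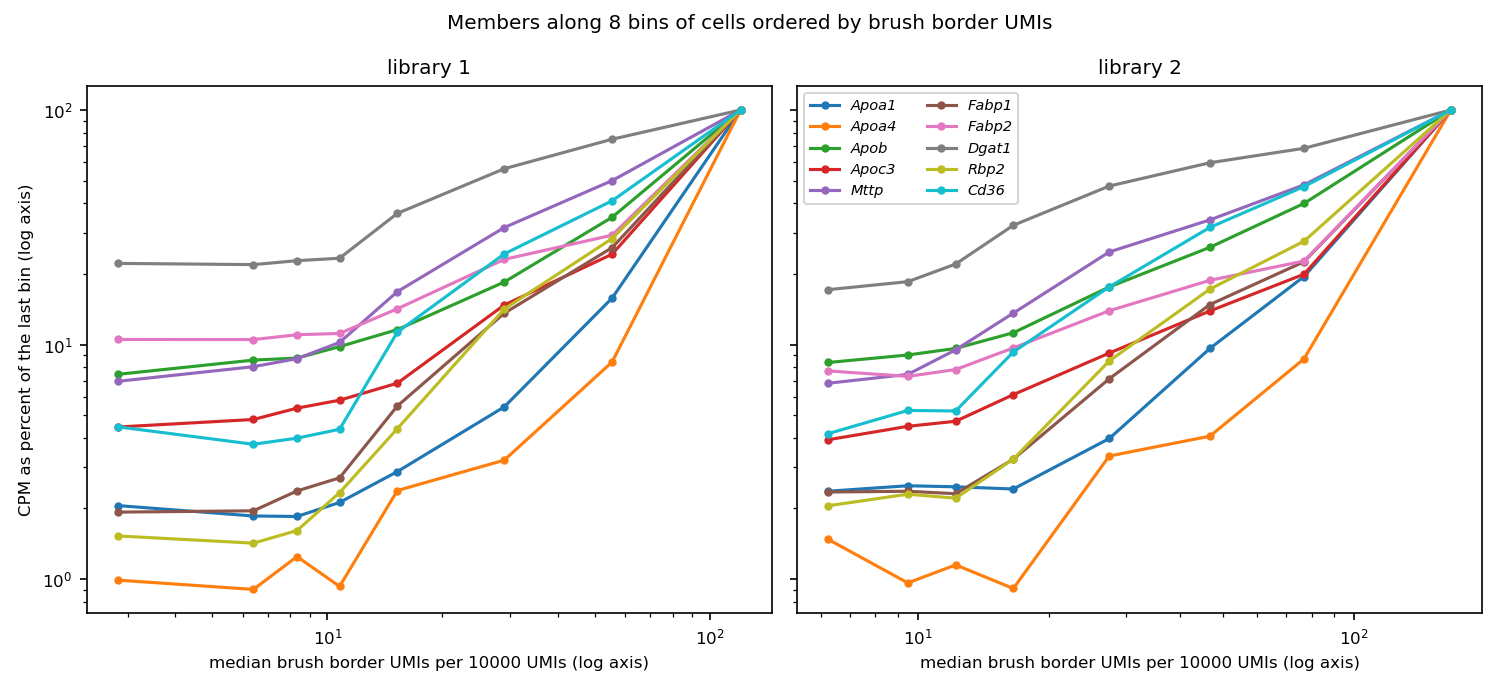
Each member as a percentage of its level in the last of 8 equal bins of cells ordered by brush border share, one series for each library. Dgat1 passes 50% in bin 6, and Apoa4 is at 8.42% and 8.68% in bin 7.

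Single cells gave the same picture. Each cell was thinned to 2000 UMIs, which left out 36 and 28 cells of stage 4 and 308 and 121 of stage 1. The 10 members then summed to a median of 2 and 2 UMIs per cell in stage 1, 4 and 4 in stage 2, 9 and 8 in stage 3, and 31 and 34.5 in stage 4. Stage 4 was broad, from 5 to 98 UMIs in library 1 and from 5 to 147 in library 2. At least 5 of the 10 members were seen in 94.3% and 95.8% of stage 4 cells, in 55.7% and 61.8% of stage 3 cells, and in 1.201% and 2.49% of stage 1 cells.

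**Figure D3:**
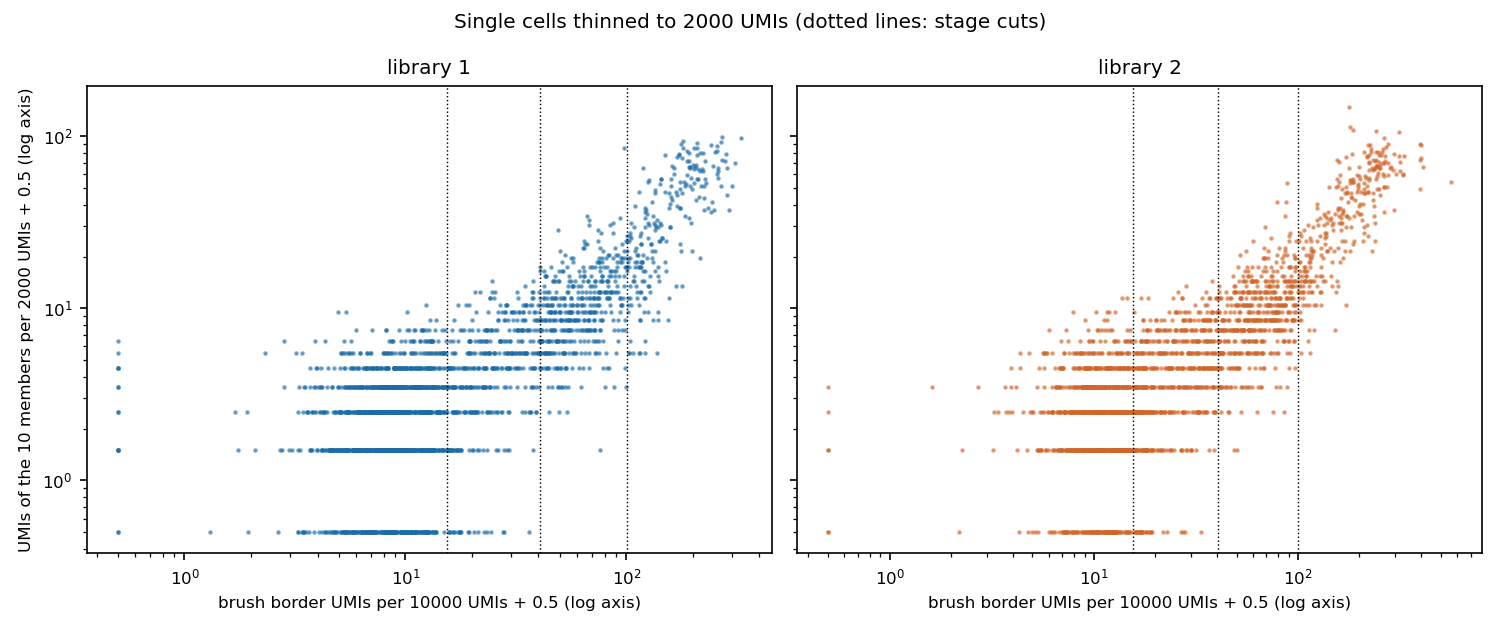
Summed UMIs of the 10 members per 2000 UMIs against brush border UMIs per 10000 in single thinned cells of library 1 and library 2, both on log axes with 0.5 added, with dotted lines at the stage limits of 15, 40 and 100. The sum climbs along the whole range, from medians of 2 and 2 in stage 1 to 31 and 34.5 in stage 4.

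Within stage 4 the members did not all vary together from cell to cell. Across its 227 and 288 thinned cells, Spearman's rho was 0.76 and 0.74 for Fabp1 and Fabp2, 0.65 and 0.68 for Fabp2 and Rbp2, and 0.70 and 0.56 for Apoa1 and Fabp2. It was -0.03 and 0.03 for Mttp and Dgat1. These are descriptions across cells of 1 library that share the brush border gradient, and low counts lower the rho of sparse members such as Cd36 and Apoa4.

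The share of cells with a UMI of each member was read against lymphocyte-like cells, whose level was taken as background. Whether lymphocyte-like cells express any member themselves was not tested. Stage 4 stood above them least for Dgat1, at 5.73-fold and 6.56-fold in CPM. In stage 4 Mttp was seen in 97.4% and 98.3% of thinned cells, Fabp2 in 96.0% and 93.1%, Fabp1 in 92.1% and 93.8%, Rbp2 in 91.2% and 91.3%, and Apob in 85.5% and 84.0%. Apoa1 was seen in 81.1% and 92.7%, Dgat1 in 76.2% and 82.3%, Apoc3 in 51.1% and 57.6%, Apoa4 in 34.8% and 31.9%, and Cd36 in 18.5% (13.7 to 24.2) and 10.1% (6.85 to 14.1). Each of these lay above the share of the same member in lymphocyte-like cells, which was highest for Fabp2 in library 2 (23.6%) and for Dgat1 in library 1 (14.1%) and was 0.49% and 0% for Cd36. Median depths before thinning were 14571 and 14771 UMIs in stage 4 and 2678 and 3514 in the lymphocyte-like cells. Apoa4 had a UMI in 0 of 206 and 0 of 195 of those thinned cells. At 3 counts this allows up to 1.46% and 1.54% of such cells to have a UMI at this depth, and the exact upper limits are 1.77% and 1.87%; it sets no limit on expression.

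In stage 1 the reading was different. Only Fabp2 (49.5% and 48.5% of cells), Mttp (26.3% and 28.8%) and Apob (21.4% and 22.2%) had a share above the lymphocyte-like share (11.7% and 23.6%, 8.74% and 8.21%, 3.88% and 3.08%) with intervals that did not overlap in both libraries. Before thinning it was 9 members, with median depths of 14048 and 14396 UMIs in the stage 1 cells. In CPM, Apoa1 in stage 1 was 0.775 (0.578 to 1.06) and 0.997 (0.794 to 1.27) times its lymphocyte-like level, and Rbp2 0.648 and 0.847 times. Fabp1 was at 1.06 (0.819 to 1.38) and 1.21 (0.937 to 1.58) times and Apoc3 at 1.35 (0.782 to 2.56) and 0.956 (0.646 to 1.47) times. The stage 1 values of these 4, and of Apoa4 at 42 and 33 UMIs in all, were not above the background that these cells measure. Fabp2 was the 1 of 8 members measured that was at least 2-fold above the lymphocyte-like level in both libraries, beside 18.6% of all genes. It stood at 2.53-fold (2.13 to 3.03) and 2.93-fold (2.45 to 3.53). Mttp (1.77-fold and 3.19-fold), Apob (1.53-fold and 5.89-fold) and Dgat1 (1.28-fold and 1.30-fold) also had intervals above 1 in both libraries. For the members not above that background, the ratios of stage 4 to stage 1 depend on it. Set against the lymphocyte-like cells instead, stage 4 was 49.7-fold and 40.4-fold higher for Apoa1 and 44.3-fold and 38.0-fold higher for Rbp2. For Fabp1 it was 54.2-fold and 51.1-fold higher and for Apoc3 33.1-fold and 20.9-fold. Apoa4, with 3 lymphocyte-like UMIs in each library, was 70.1-fold (23.9 to 341) and 70.7-fold (24.1 to 344) higher. Stage 1 cells with at least 2 stem marker UMIs (1127 and 729 cells) held 159 and 181 CPM of Mttp, and the other stage 1 cells 241 and 294 CPM. The other stage 1 cells were shallower, with medians of 1756 and 5343 UMIs against 14691 and 14971.

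Outside the absorptive lineage some members stood above their stage 1 level. In goblet-like cells Fabp2 measured 836 and 860 CPM, 2.14-fold (2.06 to 2.22) and 2.29-fold (2.21 to 2.39) above stage 1. It was 5.41-fold and 6.72-fold above lymphocyte-like cells. It was the 1 member of the 8 measured that was at least 2-fold above stage 1 in goblet-like cells of both libraries, against 6.03% of all genes. It was seen in 75.3% and 79.1% of thinned goblet-like cells and made up 51.3% and 55.3% of their member UMIs. The fold from goblet-like cells to stage 4 was 5.35 and 5.65 for Fabp2, against 35.0 and 33.0 for Apoa1 and 25.7 and 33.4 for Rbp2. Apob went the other way, at 62.2 and 56.7 CPM in goblet-like cells, 0.551 and 0.459 times its stage 1 level. In enteroendocrine-like cells the members ranged from 3 UMIs of Apoa4 in each library to 349 and 270 CPM of Fabp2, and Apob was at 105.5 and 124 CPM, near its stage 1 level. Tuft-like cells, with 35 and 68 cells too few in library 1 for a ratio, held 342 (282 to 411) and 424 (374 to 479) CPM of Fabp1, beside 77.7 and 81.0 CPM in stage 1. Fabp1 was seen in 44.8% (26.4 to 64.3) and 41.5% (28.1 to 55.9) of the 29 and 53 thinned tuft-like cells, with up to 11 and 20 UMIs in 1 cell. Fabp2 stood at 345 and 452 CPM there and Mttp at 258 and 266 CPM. Paneth-like cells held 208 and 320 CPM of Fabp2 and 84.2 and 111 CPM of Mttp. Cd36 had 8 and 4 UMIs in Paneth-like cells, and 1 and 0 in lymphocyte-like cells, where 0 allows up to 3.15 CPM.

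Between the libraries most members were close. A ratio of library 2 to library 1 was called apart when it was at least 1.5-fold in either direction. This was a rule of size alone, applied to genes with at least 100 UMIs, and the interval was not part of it. In stage 4, 0 of 10 members were called higher and 1 lower, beside 3.7% and 1.48% of all genes, and the median member ratio was 1.02 as for all genes. In stage 1 it was 1 higher and 0 lower of 9 (beside 2.06% and 1.19%), in stage 2 0 and 2 of 9 (3.56% and 1.18%), and in stage 3 0 and 1 of 10 (2.92% and 1.15%).

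Cd36 was lower in library 2 from stage 2 on. Its ratio was 0.770 (0.517 to 1.13) in stage 1, 0.477 (0.350 to 0.646) in stage 2, 0.620 (0.515 to 0.745) in stage 3 and 0.545 (0.463 to 0.642) in stage 4. In stage 4 the cells of library 2 had a higher median brush border share, 165 against 142 per 10000, so the libraries were also compared in 7 narrower intervals of that share, added after the data had been seen. The Cd36 ratio then lay between 0.395 and 0.677 and its interval was below 1 in 7 of 7. In cells thinned to 2000 UMIs the ratio was 0.7766 in stage 2 and 0.7547 in stage 3, which no longer passed the rule, and 0.4396 in stage 4. At 200 and above Cd36 was at 185 CPM in library 1 and 73.2 CPM in library 2.

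Fabp1 was also lower in library 2 from stage 2 on. The stage ratios were 1.04 (0.965 to 1.13), 0.594 (0.558 to 0.633), 0.717 (0.692 to 0.742) and 0.859 (0.840 to 0.880), of which only stage 2 passed the size rule. In the narrower intervals the Fabp1 ratio lay between 0.579 and 0.875 and its interval was below 1 in 7 of 7, with 2478 against 1435 CPM from 100 to 150 brush border UMIs per 10000. Rbp2 lay between 0.710 and 0.948 and Fabp2 between 0.698 and 0.993, with intervals below 1 in 6 of 7 each. All 3 carrier genes thus had ratios below 1 in each interval, though Rbp2 and Fabp2 stayed under the size rule in each stage. The lower ratios were not limited to the carriers and Cd36. In the 3 intervals above 100, Apoa4 was at 0.546 (0.414 to 0.715), 0.682 (0.565 to 0.823) and 0.701 (0.621 to 0.791), and Apob at 0.895, 0.700 and 0.825 with an interval below 1 in 4 of 7. Whether this is the treatment, the animals or the preparation cannot be told apart with 1 pool for each.

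Apoa1 ran the other way in the early stages, with ratios of 1.93 (1.77 to 2.11), 1.32 (1.19 to 1.46), 1.42 (1.36 to 1.49) and 1.22 (1.19 to 1.26). In lymphocyte-like cells its ratio was 1.504 (1.04 to 2.20), so the level read as background was itself higher in library 2, and the part of stray RNA in the stage 1 ratio was not tested. In the narrower intervals above 100 the Apoa1 ratio was 1.03 (0.973 to 1.09), 0.963 (0.917 to 1.01) and 1.01 (0.976 to 1.05). No interval there excluded 1, so no difference in Apoa1 was detectable at the same late brush border share.

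**Figure D4:**
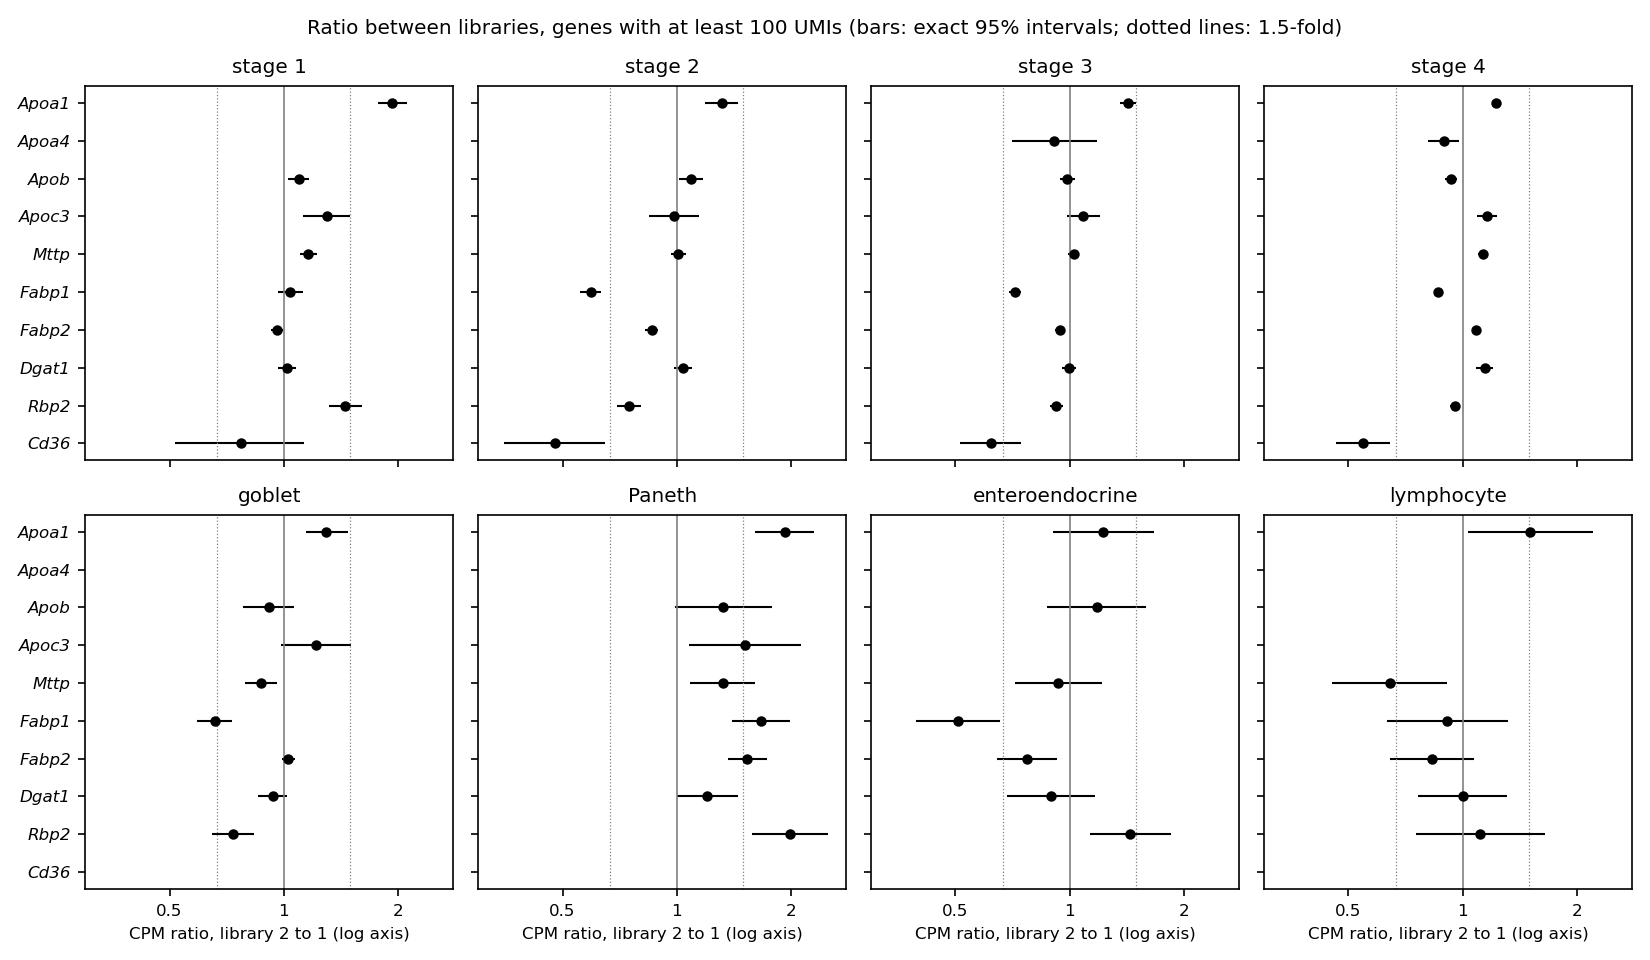
Ratio of library 2 to library 1 for each measured member in the 4 stages and in goblet-like, Paneth-like, enteroendocrine-like and lymphocyte-like cells, on a log axis with exact 95% intervals and dotted lines at 1.5-fold. Cd36 lies left of the lower line in stages 2 to 4, and 5 members lie right of the upper line in Paneth-like cells.

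In Paneth-like cells 5 of the 8 members measured were called higher in library 2 and 0 lower, beside 3.66% and 13.4% of all genes. Their ratios were 1.93 (1.61 to 2.31) for Apoa1, 1.99 (1.59 to 2.51) for Rbp2, 1.67 (1.40 to 1.99) for Fabp1, 1.54 (1.36 to 1.73) for Fabp2 and 1.51 (1.08 to 2.12) for Apoc3. The levels stayed low, from 42.3 to 320 CPM in library 2, and the brush border list rose with them, from 602 to 928 CPM. The part of absorptive RNA in these cells was not tested. In goblet-like cells 0 of 8 were called higher and 1 lower, Fabp1 at 0.658 (0.591 to 0.731), beside 3.12% and 2.26%. In enteroendocrine-like cells 0 of 7 were higher and 1 lower, again Fabp1 at 0.509 (0.392 to 0.656), beside 10.1% and 8.04%. In lymphocyte-like cells Apoa1 was higher and Mttp lower, at 0.644 (0.452 to 0.911), beside 6.9% and 5.6%.

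The stages were also split at the median of other genes. Stage 3 cells were split at the median of Reg3b and Reg3g, antimicrobial lectins of the epithelium. The upper cells had 2.32 and 1.87 times the Apoa1 of the lower cells (220 to 510 CPM and 362 to 676 CPM), the 1 member of 10 called at least 1.5-fold higher in both libraries, beside 0.305% of all genes. The brush border medians of the lower and upper cells were 56.4 and 63.1 in library 1 and 58.9 and 67.5 in library 2. Stage 4 cells were split at the median of Gsdmc2 and Gsdmc4, and the upper cells had 0.70 and 0.74 times the Fabp2 and 0.77 and 0.74 times the Fabp1 of the lower cells. Apoa1, Apoa4, Apoc3, Mttp and Rbp2 also had intervals below 1 in both libraries, from 0.715 for Apoc3 to 0.899 for Mttp in library 1 and from 0.624 for Apoa4 to 0.848 for Mttp in library 2. The ratios of all 10 members were below 1 in both libraries, but by the size rule 0 of 10 were called in either direction beside 0.13% higher and 0.217% lower. The brush border medians of the upper cells were lower as well, 134 and 150 against 153 and 186, and their part in the ratios was not tested. Stage 4 cells were split in the same way by Ada, Nt5e, Slc28a2 and Klf4, which summed to 82.7 and 115 CPM in the upper cells and 0 in the lower. The ratios of 9 members were above 1 in both libraries, from 1.07 for Rbp2 to 1.48 for Apoa4 in library 1 and from 1.21 for Mttp to 1.745 for Fabp2 in library 2. Dgat1 was the exception, at 0.944 (0.871 to 1.02) and 0.911 (0.853 to 0.972). The brush border medians of the upper cells were higher too, 157 and 191.5 against 132 and 152.6, and their part was again not tested. The share of all genes above 1 in this split was not counted, so the 9 members are not set apart from other genes by it. The lower cells held no UMI of the splitting genes, so the split can also follow depth, which was not matched.

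Members also moved with the mitochondrial share of UMIs, a sign of cell quality. UMIs of mitochondrial genes were taken out of the denominators of the member levels for this comparison. The stage ranges and brush border shares still counted them. In stage 4, the kept cells with the higher mitochondrial share (medians of 15.9% and 17.5% against 10.6% and 9.55%) had 1.62 (1.56 to 1.69) and 1.65 (1.60 to 1.70) times the Apoa1 and 1.93 (1.75 to 2.12) and 1.94 (1.80 to 2.099) times the Apoc3 of the cells below the median. These were the 2 of 10 members called at least 1.5-fold higher in both libraries, beside 1.05% of all genes, and Dgat1 followed at 1.38 and 1.59 times. Fabp1 measured 0.956 and 0.827 times and Mttp 1.02 and 0.989 times.

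The barcodes left out for more than 25% mitochondrial UMIs carried this further. Among them 193 and 292 fell in the stage 4 range, with brush border medians of 137 and 134 against 142 and 165 in the kept cells. Apoa1 stood at 9138 and 8043 CPM of the other UMIs there, 2.86-fold (2.76 to 2.96) and 2.08-fold (2.02 to 2.14) above the kept cells. Apoc3 was 3.45-fold and 2.71-fold above and Dgat1 2.75-fold and 2.21-fold, so 3 of 10 members were called higher, beside 12.1% of all genes. Fabp1 was the 1 called lower, at 0.594 and 0.597 times, beside 10.8%. Mttp was at 1.01 and 0.825 times, Fabp2 at 1.02 and 0.960 times and Apoa4 at 1.08 and 0.928 times. In the stage 3 range, where 263 and 335 barcodes had been left out, Apoa4 was higher together with its neighbours, at 6.58-fold (4.82 to 8.93) and 4.51-fold (3.29 to 6.13). Apoa1 was at 8.67-fold and 5.34-fold, Apoc3 at 6.74-fold and 5.43-fold and Dgat1 at 3.13-fold and 2.97-fold. These were the 4 of 10 members called higher there, beside 16.2% of all genes, and 0 were called lower, beside 9.76%. The levels of Apoa1, Apoc3 and Dgat1 in stages 3 and 4, and of Apoa4 in stage 3, therefore depend on where the quality limit is set. The brush border share was not matched with mitochondrial UMIs left out, and its part in these ratios was not tested.

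**Figure D5:**
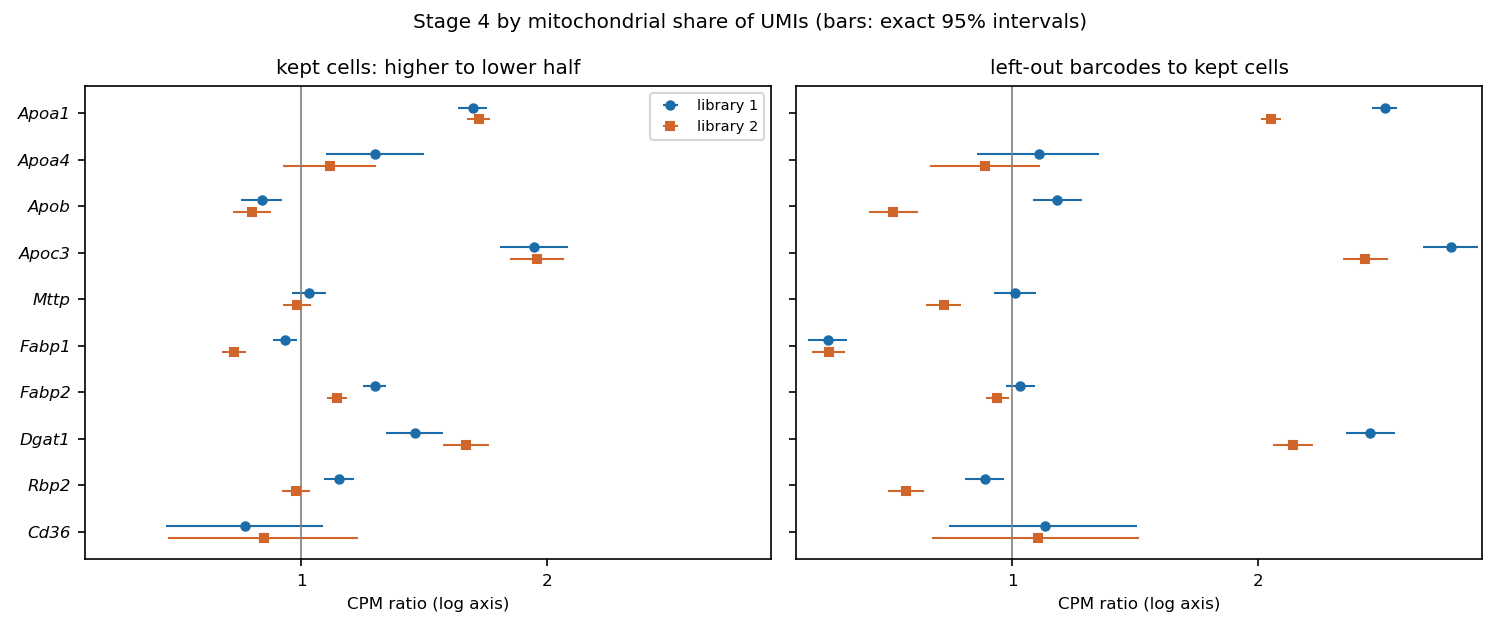
Ratios of each member within the stage 4 range by mitochondrial share of UMIs, on a log axis with exact 95% intervals. The left panel sets the kept cells above the median share against those below it, and the right panel sets barcodes over 25% against kept cells, where Apoa1, Apoc3 and Dgat1 lie above 2 and Fabp1 at 0.594 and 0.597.

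The rest of the pathway was read from a list of 33 genes. Of these, 27 had enough UMIs in stages 1 and 4, and 19 of the 27 were at least 2-fold higher in stage 4 in both libraries and 1 lower, beside the 10.3% and 28.4% given above. The list's median was 2.41 and 2.30 on the log2 scale. By role, the count of higher genes was 2 of 3 for uptake, 5 of 6 for activation and re-esterification, 6 of 7 for chylomicron assembly and secretion, 3 of 3 for cholesterol, 1 of 2 for retinoids and 2 of 6 for regulators.

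In uptake, Slc27a4, a fatty acid transport protein, went from 28.5 to 393 CPM and from 37.3 to 534 CPM, and Npc1l1, the cholesterol transporter, was 8.11-fold and 9.23-fold higher. In re-esterification Mogat2, the monoacylglycerol acyltransferase before Dgat1, was 22.0-fold and 16.0-fold higher, Acsl5, which activates fatty acids, 7.71-fold and 7.69-fold. The 1 gene of the list at least 2-fold lower in both libraries was Acsl3, a second acyl-CoA synthetase. It went from 63.0 to 9.48 CPM and from 62.9 to 7.11 CPM, and was named after its values had been seen. The acyl-CoA synthetases Acsl5 and Acsl3 thus changed in opposite directions. P4hb, the partner subunit of Mttp and a general protein folding enzyme, was 4.59-fold and 4.29-fold higher, and Tm6sf2, a factor of lipid loading, 7.12-fold and 6.36-fold. P4hb rose less than Mttp, whose ratios were 12.4 and 12.1.

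Among the other groups, Soat2, which esterifies cholesterol, was 8.23-fold and 7.77-fold higher, and Abcg5, a sterol exporter, 6.43-fold and 8.10-fold. The retinoid enzymes split, with Rdh7 11.8-fold and 14.9-fold higher while Lrat, which esterifies the retinol that Rbp2 carries, measured 1.36-fold and 0.99-fold. Of the regulators, Creb3l3, a transcription factor of lipid metabolism, went from 14.0 to 526 CPM and from 16.1 to 508 CPM. Hnf4a, a nuclear receptor of gut epithelium, measured 596 and 607 CPM in stage 1 and 299 and 346 CPM in stage 4. It thus fell to 0.501 (0.470 to 0.535) and 0.570 (0.540 to 0.602) times, short of the 2-fold rule. Apoa5, an apolipoprotein gene of the liver, had 0 UMIs in stages 1 and 4 of both libraries and was likewise named after its values had been seen.

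The genes whose pattern was most like that of the members were ranked by Pearson's r of log2(CPM + 10) over 16 points, 8 groups of cells in each library, among 11011 genes. The points share libraries, depth and the brush border gradient. To the mean of the members the closest were Gpt (r = 0.992), an alanine aminotransferase, Nat8 (0.990), Aldh1a7 (0.990), Gm8909 (0.990) and Ckb (0.985), a creatine kinase. Cyp3a13 (0.985), Gda (0.984), Hsd17b6 (0.984), Slc51b (0.984), a subunit of the bile acid exporter, and Dpep1 (0.983) followed. Gm8909 and the closest gene to Apoa1, H2-Q1 (0.985), belong to a family of near-identical class I genes, and their counts are uncertain. For single members the closest were Slc28a1 for Apoa4 (0.996), Ckb for Apob (0.984), Pxdc1 for Apoc3 (0.990), Btnl1 for Mttp (0.994), Aldh1a7 for Fabp1 (0.988), Pls1 for Fabp2 (0.984), Tmem120a for Dgat1 (0.992), Papss2 for Rbp2 (0.993) and Cyp2c66 for Cd36 (0.988). Cyp2c66 was at 218 and 129 CPM in stage 4, a difference between the libraries that r over these points already takes in. Among the members themselves r ran from 0.793 for Apoa4 and Dgat1 to 0.989 for Apoa1 and Apoc3.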

How the data were processed

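Duodenal crypt cells of 2 pooled samples, NT and ES, were profiled with 3′ single-cell reads. The authors deposited UMI counts per gene and barcode as 1 matrix of whole numbers, not normalized, per the file headers. The submitters' processing notes name Cell Ranger 2.1.1 and the build mm10. The method of cell calling is not stated in these sources. Barcodes of 27 bases are unusual for the droplet kit in the labels, so the capture chemistry is unsettled.

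From these counts, symbols were merged (31253 features to 31205 symbols), and cells were kept from 500 genes up and with no more than 25% mitochondrial UMIs. Classes were set by summed markers per 10000 UMIs with at least 3 marker UMIs: goblet 100, Paneth 300, enteroendocrine 20, tuft 10, lymphocyte 20, B cell and myeloid 10, stroma 5. These limits and the stage limits were read from the marker distributions. No doublet caller was run. Cells that met 2 or more classes (83 and 169) were set aside as mixed, and other doublets remain. UMIs were summed for each library and group, given as counts per 1000000 UMIs (CPM) with exact Poisson intervals, and compared as ratios with exact conditional intervals, for groups of at least 50 cells in each library and genes with at least 100 UMIs. Tuft-like cells of library 1 were too few. Shares of cells carry Clopper-Pearson intervals. A floor of 3 counts was used at 0.

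The members and lists were chosen with earlier results of these data known. Named genes were all 10 members, the 2 genes of each group of the wider list with the highest stage 4 CPM, the 10 genes most like the mean of the members by r (at least 200 UMIs, brush border list left out) and the 1 most like each member. The ratios were tested on simulated data. Python 3.11.15, numpy 2.4.6, scipy 1.17.1, pandas 2.3.3 and matplotlib 3.10.9 were used. Alternatives were cell filters, stage limits, marker sub-lists, means over cells, the denominator, thinning, the cells with most UMIs, subtraction of the lymphocyte-like level, the UMI minimum and barcodes found in both libraries.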

Additional observations from a re-analysis of the deposited data

Results flagged for a closer look

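The ratio of library 2 to library 1 for Fabp1 ran in opposite directions in different cells. It was 1.67 in Paneth-like cells and 0.594 in stage 2, 0.658 in goblet-like cells and 0.509 in enteroendocrine-like cells. The difference between these ratios was not tested, since each rests on 1 library a side.

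Barcodes left out for more than 25% mitochondrial UMIs, which no comparison of levels between stages used, differed from the kept cells in several members. Over all such barcodes Apoa1 measured 1386 and 1332 CPM, against 296 and 510 CPM in the kept cells. Apoc3 measured 314.6 and 304.1 CPM against 71.5 and 104 CPM, and Dgat1 684.8 and 670.9 CPM against 276 and 331 CPM. Apoa4 measured 48.5 and 36.2 CPM against 22.2 and 27.0 CPM. These pools differ in their mix of stages. The stage 4 range held 13.6% and 14.4% of the left-out barcodes, against 6.48% and 8.48% of the kept cells. Within that range Apoa4 was at 1.08 and 0.928 times, with mitochondrial UMIs out of the denominators of the levels but not of the range. The part of the mix in the pooled values was not tested.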

How the results depend on the processing

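All 10 members were highest in stage 4 under each of the 13 alternatives run for it, and at least 2-fold above stage 1 under each but thinning, which gave 9. The sizes moved more than the directions: 104 of 233 stage 4 to stage 1 ratios and 159 of 240 stage 4 levels moved beyond counting error. In library 1 the ratio of Apoa1 was 33.3 with the stage limits at 0.5 times their value and 105.3 at 2 times, that of Apoa4 62.8 and 229, and with the lymphocyte-like level subtracted that of Fabp1 was 962 and of Apob 35.15. The wider list gave 17 to 21 genes in place of 19. Counts of members apart between the libraries were less stable. The stages gave 5 pairs of member and stage, but 2 after thinning to 2000 UMIs and 11 with the lymphocyte-like level subtracted. Paneth-like cells gave 5, but 3 with no cell filter and 1 after thinning. Goblet-like, enteroendocrine-like and lymphocyte-like cells gave 4 pairs, but 1 after thinning, 8 with the subtraction and 8 with a minimum of 20 UMIs. Where the subtraction left nothing in stage 1 or in 1 library, no ratio could be formed. Thinning leaves fewer UMIs, so fewer pairs reach the minimum. Stage 1 shares above the lymphocyte-like share were 3, and 9 unthinned. Turned ratios were Fabp1 in enteroendocrine-like cells, 1.039 as a mean over cells, and Mttp in lymphocyte-like cells, 1.415 as a mean over cells and 1.112 thinned; the cause was not tested. No paired analysis was possible because each group is 1 pooled library, and no replicate could be left out. Intervals cover counting error only, and Cd36, Apoa4 and the small classes are limited most by depth.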
